A study of Mus musculus with 14 samples.

Results

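The colony stimulating factors and their receptors control how macrophages arise, survive and divide. The genes described here are 8 of the 21761 genes counted: the ligand gene Csf1, the receptor tyrosine kinase genes Csf1r, Kit and Flt3, and the cytokine receptor genes Csf2ra, Csf2rb, Csf2rb2 and Csf3r. They were taken by name and matched by gene identifier to the exon and intron counts, and 8 of 8 passed the filter on low counts over exons and over introns.

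The cells were primary macrophages grown from bone marrow of FVB/Hsd mice and collected untreated on day 7 of differentiation, in a series about early termination of transcription at regulatory elements. All had been infected with a retrovirus that carries a short hairpin RNA and selected with puromycin at 3.5 μg/ml, and all grew in 30% L929-conditioned medium and 20% serum. The 2 control libraries, scrambled 1 and scrambled 2, carried a scrambled hairpin, and the 2 knockdown libraries carried one of the Wdr82 hairpins sh1137 and sh830. Wdr82 belongs to the SET1 complexes, which methylate histone H3, and to complexes that act in transcription termination. The labels do not say whether libraries of a group came from separate mice or cultures, so the spread between these libraries may be technical. In the exon and intron fits used for calls, p-values measure the spread left after a term that pairs the libraries (given below). These fits gauge that spread with help from other genes, so a p-value can be small where the groups overlap. A hairpin lowers its target without removing it, and each knockdown library is a different hairpin. The other 10 of the 14 samples (4-thiouridine-labelled RNA, Menin hairpins, lipopolysaccharide treatment) were not analysed here.

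Macrophage colony stimulating factor, the product of Csf1, binds the receptor kinase Csf1r, and this signal is what bone marrow macrophages depend on in culture; L929-conditioned medium is used as its source. The granulocyte-macrophage factor binds a receptor made of a specific alpha chain, Csf2ra, and a signalling beta chain, Csf2rb, which mice duplicate in Csf2rb2, a beta chain that pairs with the interleukin-3 receptor. Csf3r is the granulocyte factor receptor, and Kit and Flt3 are receptors of progenitors and, respectively, of mast cells and dendritic cell precursors.

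Ribosomal RNA-depleted total RNA gave 34787556 to 43372731 exon counts of genes per library and 7294679 to 27506915 intron counts. The intron share of all gene counts was 40.4% in scrambled 1 and 44.2% in sh1137, but 14.6% in scrambled 2 and 15.2% in sh830. This difference between libraries crosses the study's groups, so each fit held a term that pairs scrambled 1 with sh1137 and scrambled 2 with sh830 (the library term), beside the group term. The knockdown was present in both hairpin libraries: over the exons of Wdr82 the controls had 100 and 144 CPM (counts-per-million of the library total), and sh1137 and sh830 had 25.1 and 40.7 CPM. It fell by 1.91 ± 0.094 log2 units (SE). The adjusted p was 0.0022 by the quasi-likelihood test of edgeR, with adjustment by Benjamini and Hochberg over all features tested. In what follows, rose and fell mean an adjusted p under 0.05 in that fit, CPM values are scaled by TMM factors, and ± is an SD for levels (n = 2 libraries per group) and an SE for log2 fold changes.

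Over exons 3 of the 8 genes rose (Csf1, Csf2rb and Csf2rb2) and 1 fell (Csf2ra), where 6.07% of the 13817 genes tested rose and 7.78% fell. Over introns 2 rose (Csf2rb and Csf2rb2) and 1 fell (Csf3r), where 6.03% of 12394 genes rose and 3.97% fell. The median log2 fold change of the 8 genes was -0.21 over exons and 0.15 over introns, against -0.01 over all genes tested in both. These calls rest on the library term, which leaves 1 residual degree of freedom. With it, 4471 of the 13817 genes tested had an unadjusted p under 0.05 over exons in edgeR. With the group term alone edgeR called 0 genes over exons (644 at an unadjusted p under 0.05) and DESeq2 182, of which 0 are among the 8; the unadjusted p was 0.028 for Csf2ra and 0.034 for Csf2rb in edgeR.

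**Figure D1:**
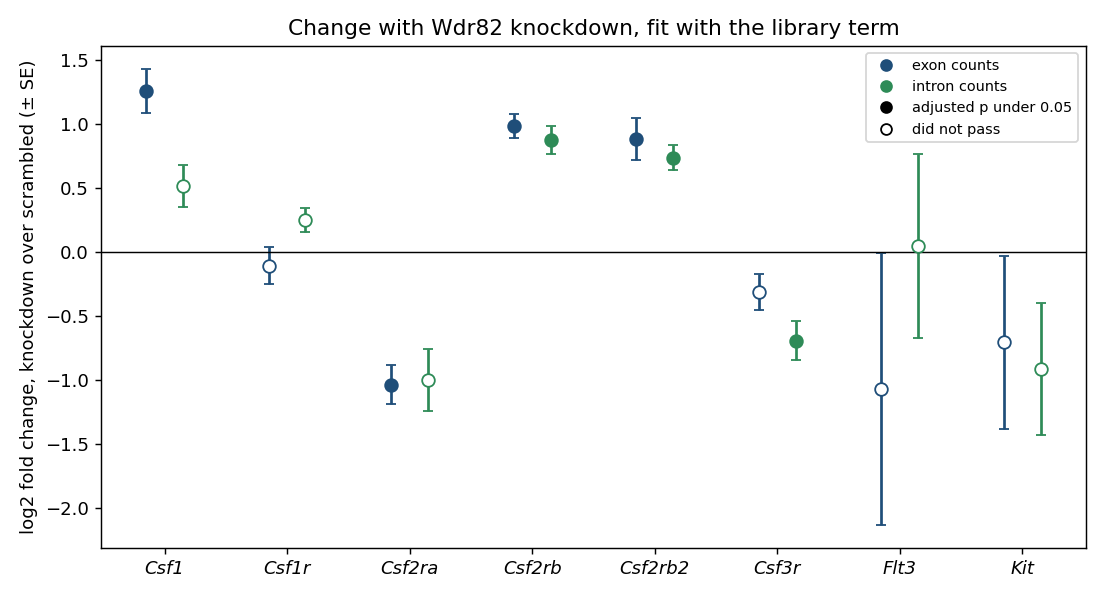
Log2 fold changes of the 8 genes, knockdown over scrambled, with the library term; points are estimates from 4 libraries, bars are ± 1 SE, blue is exon counts and green intron counts, and filled points have an adjusted p under 0.05. Csf1, Csf2rb and Csf2rb2 lie above 0 and Csf2ra near -1.04, while the bars of Flt3 and Kit are the widest.

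Per length, Csf1r stood far above the other genes. On the scale of CPM per kb of exon, here with unscaled library totals, it had 499 and 372 in the scrambled libraries and 432 and 408 in sh1137 and sh830, and its mean ranked 99 of 21761 genes. On the same scale Csf2ra followed in the scrambled libraries at 65.5 ± 29.7, then Csf2rb at 27.1 ± 7.90, Csf2rb2 at 11.7 ± 6.69, Csf3r at 5.63 ± 0.519 and Csf1 at 1.95 ± 0.999. The median gene tested had a mean level of 7.45 over the 4 libraries. Kit (0.126 ± 0.0111) and Flt3 (0.0766 ± 0.0267) were the lowest of the 8, with 37.3% and 34.0% of all 21761 genes below them by mean level. With the knockdown the alpha and beta chains changed places, with Csf2rb at 56.97 ± 21.9 and Csf2ra at 32.1 ± 6.35, and Csf1 (5.24 ± 3.76) did not differ from Csf3r (4.82 ± 1.22) beyond its spread.

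**Figure D2:**
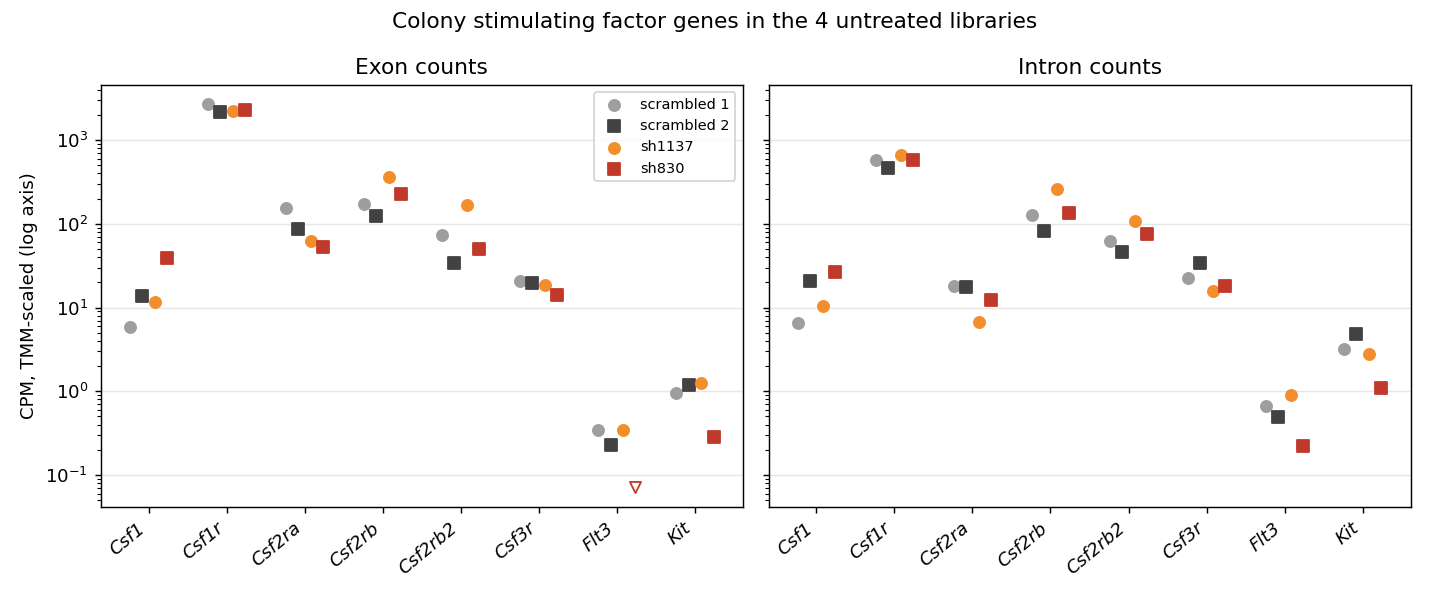
CPM (TMM-scaled, log axis) of each gene in each library over exons (left) and introns (right); circles are the libraries with a high intron share and squares those with a low one, and the open triangle marks the limit that 0 counts of Flt3 allow in sh830. Csf1r stays between 2194 and 2693 CPM over exons, the 2 beta chain genes lie higher with a knockdown hairpin within each pair, and Csf2ra lies lower. CPM values are not divided by length, so heights compare libraries and not genes.

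PU.1, the ETS transcription factor encoded by Spi1, is a known regulator of macrophage receptor genes of this family, so the promoter windows of the genes that changed over exons are shown, as 250 bases before the annotated start on the gene's strand (RefSeq, GRCm38.p6). Windows were at hand for 6 of the 8 genes, and Csf1r and Csf2rb had none. Capitals mark GAGGAA or its reverse complement TTCCTC, a purine-rich form of the GGAA core that all ETS factors share.
Csf2ra, chr19:61228419-61228668, minus strand: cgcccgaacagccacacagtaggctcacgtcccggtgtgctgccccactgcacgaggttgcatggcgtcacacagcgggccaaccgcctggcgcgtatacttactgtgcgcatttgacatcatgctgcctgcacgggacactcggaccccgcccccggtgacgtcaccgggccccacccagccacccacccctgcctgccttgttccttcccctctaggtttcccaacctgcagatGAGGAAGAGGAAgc
Csf2rb2, chr15:78305722-78305971, minus strand: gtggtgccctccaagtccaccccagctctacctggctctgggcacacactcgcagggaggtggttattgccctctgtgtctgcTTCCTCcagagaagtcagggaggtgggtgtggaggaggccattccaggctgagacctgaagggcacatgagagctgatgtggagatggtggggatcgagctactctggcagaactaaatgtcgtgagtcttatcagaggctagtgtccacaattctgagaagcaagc
Csf1, chr3:107760470-107760719, minus strand: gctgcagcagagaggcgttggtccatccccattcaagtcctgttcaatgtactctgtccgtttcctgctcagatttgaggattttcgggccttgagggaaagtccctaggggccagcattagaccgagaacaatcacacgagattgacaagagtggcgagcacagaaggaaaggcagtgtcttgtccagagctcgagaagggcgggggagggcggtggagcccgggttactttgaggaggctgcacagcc
Csf2ra holds 2 copies in tandem next to its start, Csf2rb2 holds 1 copy with its first base at -167 from the start, and Csf1 holds none. Of the 6 genes 4 had a match, and 23.3% of 32851 mouse windows of this length had one. A match is a run of letters and no measured binding, and the windows of the gene that fell and of one that rose both hold it. Spi1 itself fell, from 163 and 221 CPM in the controls to 111 and 174 CPM in sh1137 and sh830 (log2 fold change -0.45 ± 0.095, adjusted p = 0.036 in edgeR), although the groups overlap.

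Csf1, the ligand gene, rose over exons in each hairpin library relative to its paired control. Csf1 (identifier 12977; mm9 chromosome 3, 107543966 to 107563387, minus strand) had 5.89 CPM in scrambled 1, 13.7 CPM in scrambled 2, 11.6 CPM with sh1137 and 39.3 CPM with sh830. Of these, the sh830 library was the highest and scrambled 1 the lowest, and the groups overlap, since scrambled 2 lies above sh1137. The means were 9.82 ± 5.55 and 25.5 ± 19.6 CPM, with 1.97-fold more in sh1137 than in scrambled 1 and 2.86-fold more in sh830 than in scrambled 2. The log2 fold change was 1.26 ± 0.17 (adjusted p = 0.015 in edgeR), and with the group term alone 1.37 ± 0.74 (adjusted p = 0.85).

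The intron log2 fold change of Csf1 was below that of its exons. They held 6.54, 21.0, 10.5 and 26.9 CPM in scrambled 1, scrambled 2, sh1137 and sh830, which came to 0.52 ± 0.17 log2 units (adjusted p = 0.10 in edgeR). Each knockdown library was above its paired control, but scrambled 2 exceeded sh1137. The intron change was below the exon change by 0.76 log2 units (-0.76 ± 0.20, adjusted p = 0.0084 for the interaction in edgeR), and no other of the 8 genes passed that test; without a library term for each interval type the adjusted p was 1.0. Of 11742 genes, 2.19% had an intron log2 fold change above that of exons and 1.46% one below it, Csf1 being among the latter. Within the pairs, the log2 fold changes of exons and introns were 0.975 and 0.677 for sh1137 over scrambled 1. They were 1.516 and 0.356 for sh830 over scrambled 2, so the gap lay mostly in that pair. The interaction p-value rests on spread pooled over genes, so it does not count this disagreement between the pairs for Csf1. Introns took 39.1% of the gene's counts in scrambled 1, 23.9% in scrambled 2, 36.7% with sh1137 and 12.9% with sh830 (exact 95% binomial intervals 34.3 to 44.1, 20.8 to 27.2, 33.1 to 40.5 and 11.4 to 14.5%, counting error only). The intervals of scrambled 1 and sh1137 overlap.

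Of markers of stromal and endothelial cells, which also make this ligand, Col1a1, Col3a1 and Dcn were ordered by library as Csf1 was. Dcn had 2 counts in both scrambled 1 and sh1137, so its order between them rests on library scaling. The same order held for Clec7a and Ccl6 (given below), which are not on this marker list. Col1a2 had 0.831, 21.5, 0.747 and 50.2 CPM in scrambled 1, scrambled 2, sh1137 and sh830, so sh1137 was not above scrambled 1. Neither Col1a2 (adjusted p = 0.11 in edgeR) nor Col3a1 (0.52) was called. Cdh5 and Pecam1 were highest in sh1137. Summed, the 7 markers held 4.55 and 34.4 CPM in scrambled 1 and 2, 30.1 CPM with sh1137 and 123 CPM with sh830. Of the 6 tested, 3 rose: Col1a1 (2.58 ± 0.18), Cdh5 (2.99 ± 0.24) and Pecam1 (2.87 ± 0.22), with adjusted p from 0.0049 to 0.0057 in edgeR. Col1a1, a fibroblast collagen gene, had 0.0978, 9.26, 0.774 and 53.3 CPM in scrambled 1, scrambled 2, sh1137 and sh830, so it was high in the 2 libraries where Csf1 was highest, and the fit with the group term alone and without sh830 gave a log2 fold change of -2.61. Lum, another fibroblast gene, was at 0 counts in 3 of the 4 libraries. In bulk RNA more cells of a type and more RNA per cell cannot be told apart, and the part of these markers in the rise of Csf1 was not tested. With the group term alone Csf1 was at 0.24 log2 units without sh830, and at 1.99 without sh1137 (adjusted p = 0.011 in edgeR).

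**Figure D3:**
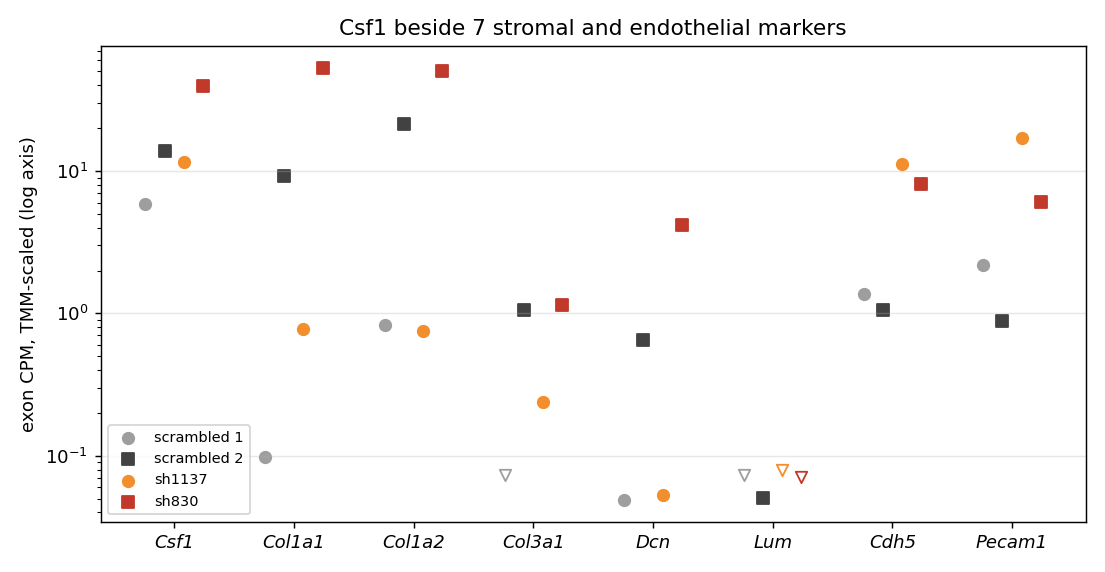
Exon CPM (TMM-scaled, log axis) of Csf1 and of 7 stromal and endothelial markers in each of the 4 libraries; open triangles mark the limit that 0 counts allow. Csf1, Col1a1 and Dcn are highest in sh830 (39.3, 53.3 and 4.17 CPM) and next highest in scrambled 2 (13.7, 9.26 and 0.652 CPM). So are Col1a2 (50.2 and 21.5 CPM) and Col3a1 (1.14 and 1.05 CPM), while Lum has counts in scrambled 2 alone. Cdh5 and Pecam1 are highest in sh1137.

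Of the other ligand genes of these receptors, Csf2, Csf3 and Il34 had few counts, Kitl fell and Flt3l did not pass. Csf2, the granulocyte-macrophage factor gene, had 0, 0, 1 and 4 exon counts in scrambled 1, scrambled 2, sh1137 and sh830, and Csf3, the granulocyte factor gene, had 1, 4, 9 and 2. Il34, which encodes the other ligand of Csf1r, had 0, 4, 2 and 10 counts. Kitl, the ligand of Kit, had 12.8 and 6.07 CPM in scrambled 1 and 2, 7.45 CPM with sh1137 and 3.03 CPM with sh830. It fell by 0.89 ± 0.20 log2 units (adjusted p = 0.039 in edgeR), although sh1137 lies above scrambled 2. The exon call of Kitl was lost with RLE factors (adjusted p = 0.052 in edgeR) and in DESeq2 with the library term (0.055). With the group term alone its exon value was -0.23 without scrambled 1, -0.32 without sh830 and -1.65 without sh1137. Introns of Kitl fell too (-0.95 ± 0.175, adjusted p = 0.024 in edgeR). Flt3l, the ligand of Flt3, did not pass (-0.22 ± 0.20, adjusted p = 0.49 in edgeR). Of the 13 ligand and receptor genes listed beside the 8, 7 were tested, 1 rose (Pdgfrb) and 1 fell (Kitl).

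Csf1r, the receptor of macrophage colony stimulating factor, did not pass the test over exons. Csf1r (identifier 12978; mm9 chromosome 18, 61265226 to 61290793, plus strand) had 2693 CPM in scrambled 1, 2194 CPM in scrambled 2, 2209 CPM with sh1137 and 2311 CPM with sh830. Both knockdown libraries lie between the controls. The log2 fold change was -0.11 ± 0.14 (adjusted p = 0.64 in edgeR), less than the spread between the scrambled libraries, of which the first was 1.23-fold above the other. Without scrambled 1 the value, with the group term alone, was 0.03.

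Over introns Csf1r had 579, 470, 666 and 575 CPM in scrambled 1, scrambled 2, sh1137 and sh830. Each hairpin library was above its paired control, by 1.15-fold and 1.23-fold, but sh830 did not exceed scrambled 1. The log2 fold change was 0.25 ± 0.094 (adjusted p = 0.15 in edgeR), and the intron change exceeded the exon change by 0.36 ± 0.12 log2 units (adjusted p = 0.061 for the interaction). Introns made up 11.1, 4.21, 16.2 and 5.10% of the gene's counts, below the share over all genes in each library.

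RNA from the stretch in front of Csf1r rose many-fold, while the gene itself did not pass the test. The authors annotated a region of 11 kb there (mm9 chromosome 18, 61254500 to 61265499, no strand), which ends 274 bp inside the gene. It held 348 and 156 counts in scrambled 1 and 2, and 3288 in sh1137 and 1794 in sh830. Both knockdown libraries lie far above both controls, by 10.3-fold for sh1137 over scrambled 1 and 10.9-fold for sh830 over scrambled 2. The log2 fold change was 3.40 ± 0.11 (adjusted p = 0.0020 in edgeR). With the group term alone it was 3.39 (adjusted p = 0.42), and when each library was left out in turn under that fit it was 2.77 to 4.04, with an adjusted p from 2.7e-06 to 0.035. Such regions were chosen by the authors on a knockdown comparison, and 54.6% of the 1068 regions tested rose, so the direction is no independent result.

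Upstream of that region lies Pdgfrb, a receptor kinase gene of platelet-derived growth factor on the same strand. It had 8.63 and 9.58 CPM over exons in scrambled 1 and 2, 42.4 CPM with sh1137 and 37.3 CPM with sh830. Both knockdown libraries exceeded both controls, and the log2 fold change was 2.13 ± 0.13 (adjusted p = 0.0040 in edgeR; 0.42 with the group term alone). Its introns rose by 2.83 ± 0.21 (adjusted p = 0.0016). A second region, 13226 bp before Csf1r and named for the end of Pdgfrb, held 0, 11, 229 and 164 counts and rose by 5.19 ± 0.94 log2 units (adjusted p = 0.026 in edgeR; 0.058 in DESeq2 with the library term). The size rests on 11 control counts in scrambled 2: with the group term alone the fitted value was 10.66 without that library and 4.15 without scrambled 1 (adjusted p = 0.067). Hmgxb3, whose end lies 137 bp beyond the end of Csf1r on the other strand, did not pass (0.11 ± 0.082, adjusted p = 0.39 in edgeR).

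Per kb, the region in front of Csf1r stayed far below the exons of the gene in each library, both scaled by the exon totals. The region in front of Csf1r had 0.774 and 0.356 CPM per kb in scrambled 1 and 2, and 7.98 and 3.87 CPM per kb with sh1137 and sh830. The introns of Csf1r had 28.8, 23.4, 33.2 and 28.7 CPM per kb, scaled by the intron totals, and its exons 489, 398, 401 and 419. The intron values are on another scale, so they do not compare with those of the region or the exons. Counting by strand is not stated in the sources used here, so counts at the overlap of region and gene could belong to either.

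**Figure D4:**
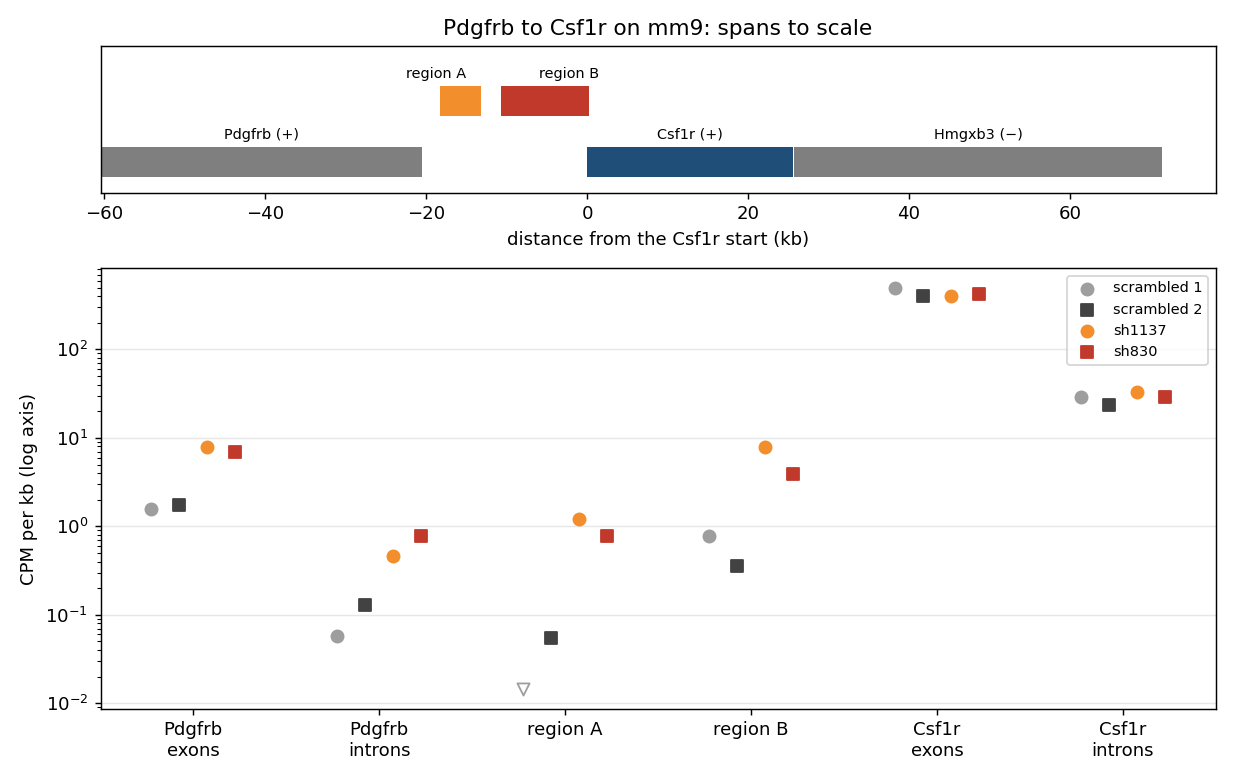
Top: Pdgfrb, Csf1r, Hmgxb3 and 2 annotated non-gene regions, drawn to scale by distance from the Csf1r start in kb (region A is named for the end of Pdgfrb, region B for the start of Csf1r). Bottom: CPM per kb (log axis) in the 4 libraries, exons and regions scaled by exon totals and introns by intron totals. Heights of introns therefore do not compare with those of exons or regions. The open triangle marks the limit for 0 counts. Regions A and B and Pdgfrb are higher in both knockdown libraries, while Csf1r exons stay between 398 and 489 CPM per kb.

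Kit and Flt3 had few counts. Kit (identifier 16590), the stem cell factor receptor, had 39 and 47 exon counts in scrambled 1 and 2, and 47 in sh1137 and 12 in sh830. Only sh830 was low, and the log2 fold change of -0.71 ± 0.68 did not pass (adjusted p = 0.50 in edgeR). Its introns had 3.16, 4.89, 2.82 and 1.10 CPM, with both knockdown libraries below both controls, and did not pass either (-0.91 ± 0.51, adjusted p = 0.30). Flt3 (identifier 14255) had 14, 9, 13 and 0 exon counts in the same order of libraries. The 0 counts in sh830 allow up to 0.0711 CPM, counting error only, and the log2 fold change was -1.07 ± 1.1 (adjusted p = 0.52).

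Markers of cells that carry these receptors were mostly low. Of 9 mast cell and basophil markers, 8 were measured, 4 had no count in these libraries, 1 was tested and 0 were called (0 at an unadjusted p under 0.05 in edgeR, 0 in DESeq2). Their summed level was 0.391 to 3.89 CPM, and the upper end is mostly Mcpt8, a basophil protease gene, with 0, 1, 0 and 129 counts in scrambled 1, scrambled 2, sh1137 and sh830; it was named after its values were seen. The 9 dendritic cell markers summed to 5.77 to 15.5 CPM, and of 7 tested 1 rose, Xcr1, a chemokine receptor gene (1.49 ± 0.29, adjusted p = 0.030 in edgeR). Progenitor markers summed to 81.4 to 130 CPM, nearly all of it Cd34, with 0 of 3 called over exons (0 at an unadjusted p under 0.05, 0 in DESeq2). Introns of Meis1, from that list, rose (0.62 ± 0.12, adjusted p = 0.026 in edgeR). Lymphocyte markers summed to 0.426 to 2.11 CPM, with 0 of 2 called over exons (1 at an unadjusted p under 0.05, 0 in DESeq2). Of these, Ms4a1 had 7, 2, 16 and 64 exon counts in scrambled 1, scrambled 2, sh1137 and sh830. Its introns rose (2.81 ± 0.54, adjusted p = 0.027 in edgeR). Over exons, 4471 of all 13817 genes tested had an unadjusted p under 0.05 in edgeR with the library term.

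The chains of the granulocyte-macrophage receptor moved in opposite directions. Csf2ra, the ligand-specific alpha chain (identifier 12982; mm9 chromosome 19, 61300305 to 61304321, minus strand), had 157 CPM in scrambled 1, 87.9 CPM in scrambled 2, 62.7 CPM with sh1137 and 52.4 CPM with sh830. Both knockdown libraries lie below both controls, by 2.50-fold and 1.68-fold within the pairs. It fell by 1.04 ± 0.15 log2 units (adjusted p = 0.017 in edgeR; -1.09 ± 0.35 and 0.61 with the group term alone). Its introns, with 18.0, 17.6, 6.72 and 12.4 CPM, missed the threshold (-0.999 ± 0.24, adjusted p = 0.051 in edgeR). They passed it with RLE factors (adjusted p = 0.015) or without the filter on low counts (0.0090), settings that called more genes over introns. With the group term alone the intron value was -0.91 ± 0.38 (adjusted p = 0.91 in edgeR). The intron and exon changes differed by 0.05 ± 0.16 log2 units (adjusted p = 0.94 for the interaction).

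Csf2rb, the shared beta chain of the receptors for granulocyte-macrophage factor, interleukin 3 and interleukin 5, rose over exons and introns. Csf2rb (identifier 12983; mm9 chromosome 15, 78156228 to 78184277, plus strand) had 171 and 123 CPM over exons in scrambled 1 and 2, 360 CPM with sh1137 and 228 CPM with sh830. Both knockdown libraries lie above both controls. The means were 147 ± 34.2 and 294 ± 93.2 CPM, and the log2 fold change was 0.98 ± 0.093 (adjusted p = 0.0073 in edgeR; 1.00 ± 0.34 and 0.65 with the group term alone). Introns held 126, 82.8, 258 and 135 CPM and rose by 0.88 ± 0.11 (adjusted p = 0.0081), again without overlap.

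Csf2rb2, the beta chain gene of the interleukin-3 receptor (identifier 12984; mm9 chromosome 15, 78112940 to 78136033, minus strand), rose by a like amount with a wider spread. It had 74.3 CPM in scrambled 1, 34.4 CPM in scrambled 2, 170 CPM with sh1137 and 50.7 CPM with sh830. Over exons the groups overlap, since scrambled 1 lies above sh830, and each knockdown library is above its paired control by 2.29-fold and 1.48-fold. The log2 fold change was 0.88 ± 0.16 (adjusted p = 0.026 in edgeR; 1.02 ± 0.69 and 0.92 with the group term alone). Without sh1137 it was -0.11, and without sh830 it was 1.67 (adjusted p = 0.043), both with the group term alone. Over introns, with 63.0, 46.6, 109 and 74.8 CPM, the groups do not overlap and it rose by 0.74 ± 0.096 (adjusted p = 0.0092).

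The beta chain genes lie head to head, with 20194 bp between their starts, and are near copies of each other, so reads could have been shared between them and the split is uncertain. Csf2rb2 took 30.3, 21.9, 32.1 and 18.2% of their summed exon counts in scrambled 1, scrambled 2, sh1137 and sh830 (exact 95% binomial intervals 29.4 to 31.2, 20.9 to 22.9, 31.4 to 32.7 and 17.5 to 18.9%). The share was higher in the libraries with a high intron share and did not separate the groups. Over introns, where copies diverge more, it was 33.3, 36.0, 29.6 and 35.6%. Ncf4, the gene next to Csf2rb2 and a subunit of the phagocyte oxidase, did not pass (-0.20 ± 0.085, adjusted p = 0.16 in edgeR). Of genes tested within 100 kb of Csf1, Csf2ra and Flt3, the nearest did not pass either (adjusted p from 0.43 to 0.78 in edgeR), with -0.10 ± 0.085 for Ahcyl1 beside Csf1, 0.09 ± 0.20 for Gm7102 beside Csf2ra and -0.17 ± 0.26 for D5Ertd605e beside Flt3. Tex33 beside Csf2rb and Urad beside Flt3 had 0 counts.

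The balance of beta to alpha chain transcripts turned over. Per kb of exon, Csf2rb was 0.377 of Csf2ra in scrambled 1 and 0.483 in scrambled 2, and 1.98 times Csf2ra with sh1137 and 1.51 times with sh830. The ratio was below 1 in both controls and above 1 in both knockdown libraries, by 5.25-fold and 3.12-fold within the pairs. This ratio needs no scaling between libraries. An exact two-sided permutation test of 2 against 2 libraries gave p = 0.33, the smallest it can give. The ratio joins the rise of Csf2rb and the fall of Csf2ra in the same libraries, so it is no independent result. Csf2rb2 to Csf2ra went from 0.190 and 0.157 to 1.09 and 0.388. Il3ra, the alpha chain gene of the interleukin-3 receptor, did not pass (0.07 ± 0.21, adjusted p = 0.83 in edgeR).

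**Figure D5:**
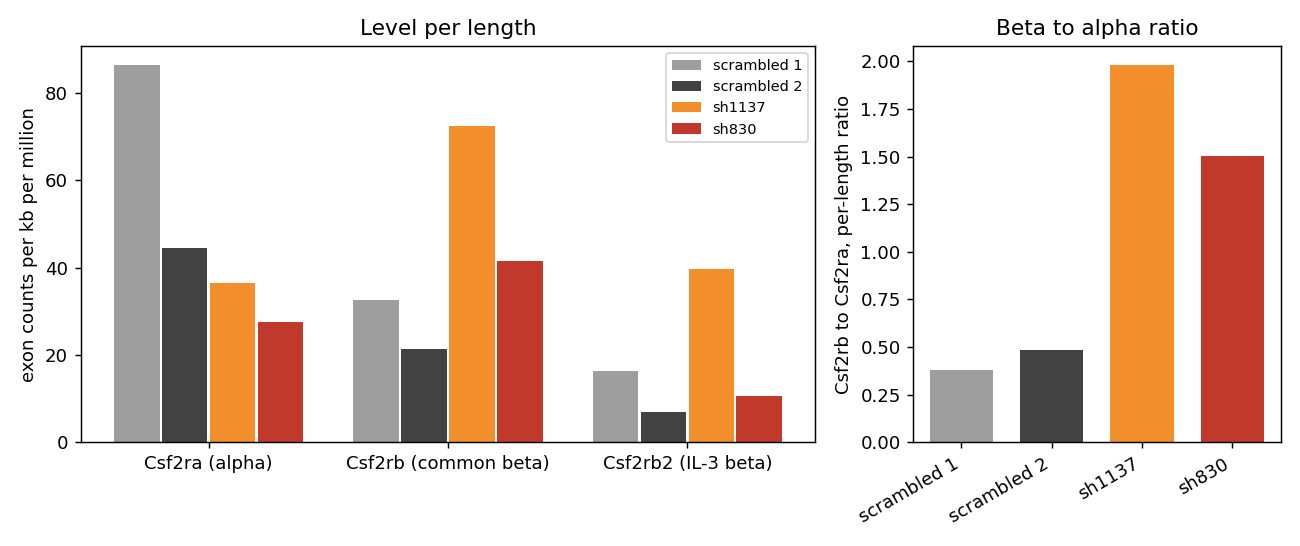
Left: CPM per kb of exon (unscaled totals) of Csf2ra, Csf2rb and Csf2rb2 in each library. Right: the per-length ratio of Csf2rb to Csf2ra in each library, which is 0.377 and 0.483 in the scrambled libraries and 1.98 and 1.51 in the knockdown libraries.

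Csf3r, the granulocyte colony stimulating factor receptor (identifier 12986; mm9 chromosome 4, 125701903 to 125721684, plus strand), was a little lower over exons and fell over introns. It had 20.6, 19.8, 18.5 and 14.3 CPM over exons in scrambled 1, scrambled 2, sh1137 and sh830, so both knockdown libraries were below both controls. The log2 fold change of -0.31 ± 0.14 did not pass (adjusted p = 0.17 in edgeR). Its introns had 22.7 and 34.1 CPM in the controls and 15.9 and 18.2 CPM in the knockdown libraries, and fell by 0.69 ± 0.15 (adjusted p = 0.038; -0.73 ± 0.30 and 0.89 with the group term alone; -0.73 and 0.098 in DESeq2 with the library term). The difference between intron and exon change did not pass (-0.39 ± 0.18, adjusted p = 0.24). Mrps15, a mitochondrial ribosomal protein gene 2487 bp beyond Csf3r on the same strand, fell over exons by 0.51 ± 0.097 (adjusted p = 0.029 in edgeR).

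Most granulocyte markers beside Csf3r were low, apart from matrix metalloproteinases. The 12 measured of 13 markers summed to 71.4 and 42.6 CPM in scrambled 1 and 2, 239 CPM with sh1137 and 179 CPM with sh830, and of 12 tested 2 rose: Mmp8 (2.16 ± 0.10, adjusted p = 0.0020) and Mmp9 (2.53 ± 0.51, adjusted p = 0.033, both in edgeR; 0.051 for Mmp9 with RLE factors). Mmp8 and Mmp9 made up most of those sums. Of the others the highest value was 5.55 CPM, for Mpo, a granule peroxidase gene, which had 5.55, 1.51, 5.28 and 0.308 CPM in scrambled 1, scrambled 2, sh1137 and sh830, and Elane and Camp stayed at or under 0.774 CPM. Their part in the values of Csf3r was not tested.

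In CPM, both knockdown libraries were above both controls for 1 of the 8 genes over exons (Csf2rb) and below both for 2 (Csf2ra and Csf3r), where 15.6% and 15.7% of the genes tested did so. Over introns they were above for 2 (Csf2rb and Csf2rb2) and below for 3 (Csf2ra, Csf3r and Kit), where 17.0% and 14.2% of the genes tested did so.

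The signalling paths behind these receptors were described by a list for each arm. Of 12 genes of the JAK and STAT arm used by the cytokine receptors, 11 were tested and 0 were called in edgeR with the library term (6 at an unadjusted p under 0.05, 0 in DESeq2), with a median log2 fold change of 0.08. Of all 13817 genes tested over exons, 4471 had an unadjusted p under 0.05 in that edgeR fit. Of 32 genes of the receptor kinase arm, 2 rose and 6 fell, with a median of -0.09, where 6.07% of all genes tested rose and 7.78% fell. Gab2, an adaptor that couples these receptors to phosphoinositide 3-kinase, rose by 0.45 ± 0.082 (85.5 and 85.4 CPM in the controls, 118 and 115 CPM in the knockdown libraries; adjusted p = 0.026 in edgeR). Src, a kinase gene with 0.880 and 2.03 CPM in the controls, rose to 2.59 and 8.32 CPM (1.81 ± 0.29, adjusted p = 0.020). Dok2, an adaptor that restrains kinase signalling, fell from 104 and 114 CPM to 63.5 and 63.3 CPM (-0.78 ± 0.088, adjusted p = 0.011). Cblb, a ubiquitin ligase gene (-0.58), and Tyrobp, the adaptor DAP12 (-0.52), fell too, but without scrambled 1 the value of Cblb was 0.14 and without scrambled 2 that of Tyrobp was 0.22, with the group term alone. Of 4 genes of receptor shedding, 0 were called (2 at an unadjusted p under 0.05 in edgeR, 0 in DESeq2).

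Among 14 genes of transcription factors linked to Csf1r, 1 rose and 3 fell over exons. Of 9 tested over introns 1 fell, Runx1 (-0.595 ± 0.11, adjusted p = 0.025 in edgeR). Egr2, an early growth response factor, rose from 0.929 and 2.18 CPM in the controls to 4.72 and 4.88 CPM (1.72 ± 0.38, adjusted p = 0.039 in edgeR; 0.059 with RLE factors). Fos (-0.92 ± 0.20, adjusted p = 0.037; 0.055 with RLE factors) and Myc (-0.52 ± 0.099, adjusted p = 0.028), both induced by growth factor signals, fell with Spi1. Without scrambled 1 the values of Fos and Myc, with the group term alone, were 0.03 and 0.08, and the value of Spi1 was -0.15 without sh1137 and -0.79 without sh830. Of 10 macrophage markers, 2 fell over exons, the lysosomal gene Cd68 (-0.94 ± 0.096, adjusted p = 0.0086 in edgeR) and the Fc receptor gene Fcgr1 (-1.51 ± 0.084, adjusted p = 0.0032), and 0 rose. Over introns Fcgr1 (-1.64 ± 0.12, adjusted p = 0.0016 in edgeR) and Cd14 (-0.74 ± 0.17, adjusted p = 0.043) fell. The 10 markers, Itgam included, summed to 7949 to 14670 CPM, with Lyz2 the largest part (3645 CPM in sh1137 to 9210 CPM in sh830). Adgre1 had 456, 555, 463 and 412 CPM in scrambled 1, scrambled 2, sh1137 and sh830. Transcripts listed as macrophage markers were thus present in each of the 4 libraries, and the sum is no measure of identity or purity. These lists were chosen with earlier results of these data known. Their numbers of called genes stand beside 6.07% rising and 7.78% falling over all genes tested over exons. Over introns the shares were 6.03% and 3.97%.

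By the least root mean square difference of log2 CPM over the 4 libraries, centred on each gene's mean, the nearest of 12017 genes with a mean of at least 1 CPM were as follows. Csf1 was nearest to Clec7a, the beta-glucan receptor gene (0.0970; 3.89, 11.2, 8.22 and 30.2 CPM), and to the chemokine gene Ccl6 (0.119). Csf2ra was nearest to Ank1 (0.0597) and to the scavenger receptor gene Stab1 (0.0745), which had 2516 and 1491 CPM in the controls and 947 and 786 CPM in the knockdown libraries. Csf2rb was nearest to Tmem8b (0.0320) and to the integrin gene Itgax (0.0462), which had 7.70 and 5.72 CPM in the controls and 16.1 and 10.3 CPM in the knockdown libraries. Csf2rb2 was nearest to Prox2 (0.0971) and Bhlha15 (0.106), Csf1r to Chst12 (0.0207) and Naf1 (0.0212), and Csf3r to Rdh13 (0.0158) and Slfn9 (0.0163). These distances describe 4 libraries that share the split in intron share, and Kit and Flt3 were too low to be compared.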

How the data were processed

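The deposited files hold each gene's read counts, made by the authors, with exons and introns in separate files for each library and no normalization; the unit was read from the whole-number values. Tools listed in the submitters' processing notes are SICER, Cuffdiff 2.1.1, Cufflinks 2.1.1 and TopHat 1.3.1, with mm9 as the build; the tool that counted and its use of strand are not given in the sources used here. Reads of near copies, overlapping genes and antisense neighbours could therefore have been shared. The deposited annotation holds other values, the mm9 coordinates of genes and of non-gene regions. Per the file headers' source field, the regions come from a SICER comparison of hairpin with vector libraries, so they were chosen on a knockdown comparison.

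For exons, genes and regions entered one quasi-likelihood fit (edgeR 4.0.16 in R 4.3.3) after filterByExpr, scaled by the TMM factors of the genes, with a group term and the library term; p-values were adjusted by Benjamini-Hochberg at a threshold of 0.05. Introns were fitted alike. A separate fit, with a term for each library, tested whether the knockdown effect differed between introns and exons. Its p-values match a normal distribution of the change over its SE, so they rest on spread pooled over genes. The SE is the log2 fold change divided by the root of F, so it too draws on the spread of other genes. DESeq2 1.42.0 was an alternative, with the group term alone, a crossed split, RLE factors, no filter and each library left out. The fits with the library term were also run on simulated counts, which had the split between the pairs built in and the same dispersion for every gene. That run cannot test whether the library term is right for these data. Binomial intervals and limits for 0 counts (3 counts) cover counting error only. Precision is limited by 2 libraries per group more than by depth.

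Gene identifiers were matched to symbols by RefSeq tables (21615 of 21761), which use GRCm38.p6 and served for names and promoter windows only. The genes described, the gene lists and the library term were chosen with earlier results of these data known. The naming rule took the 8 genes, Wdr82, the nearest genes and regions within 100 kb, called genes of each list (the 3 with the smallest p where over 3 passed in one direction), named ligands, and the 2 genes most alike to each of the 8 with a mean of at least 1 CPM (after adding 0.5 CPM). The lists were other ligands and receptors, the JAK and STAT arm, the receptor kinase arm, Csf1r transcription factors, receptor shedding, and markers of macrophages, granulocytes, mast cells and basophils, dendritic cells, progenitors, lymphocytes and stroma. Numbers of genes called in a list are over exons unless introns are named.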

Additional observations from a re-analysis of the deposited data

How the results depend on the processing

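With the group term alone edgeR called 0 genes over exons (644 at an unadjusted p under 0.05), 0 over introns (707) and 0 for intron against exon change (68), and 0 of the 8 genes in each. The term for the crossed split called 19 genes over exons and 62 over introns, and DESeq2 with the group term alone 182 and 157, with 0 of the 8 genes. Over introns DESeq2 with the library term called 822 genes, RLE factors 1974 and no filter 1871, against 1239. Leaving out each library in turn, with the group term alone, called 14 to 206 genes over exons and 19 to 231 over introns, and 0 to 1 and 0 of the 8 genes. In the same fits the exon log2 fold change ranged from -0.23 to 0.031 for Csf1r, -0.11 to 1.67 for Csf2rb2, -6.56 to 0.30 for Flt3 and -1.90 to 0.24 for Kit. The intron values ranged from -0.38 to 1.49 for Csf1, -0.17 to 0.60 for Flt3 and -0.68 to 0.031 for Wdr82. The intron value of Flt3, 0.05, was -0.25 with the crossed split, -0.29 and -0.034 in DESeq2 with and without the library term, and -0.029 with no filter. Of genes outside the 8, the exon values over those fits ranged from -1.37 to 0.14 for Cblb, -1.31 to 0.22 for Tyrobp, -1.21 to 0.084 for Myc, -2.04 to 0.025 for Fos and -2.61 to 8.08 for Col1a1. They ranged from -0.20 to 0.35 for Il3ra, -0.26 to 0.06 for Chst12, -0.26 to 0.065 for Naf1, -0.21 to 0.42 for Hmgxb3, -1.40 to 1.45 for Gm7102, -0.44 to 0.081 for Ncf4, -0.47 to 0.18 for D5Ertd605e and -0.27 to 0.06 for Ahcyl1, none of them called. Of 255 alternative values of the 8 genes and Wdr82, 186 kept direction and side of the threshold, 53 lost the threshold, 3 passed it newly, 12 changed sign and 1 without a test moved. The 186 include values called in neither fit, so they are no measure of how well the calls held. No paired analysis was possible because the knockdown libraries carry hairpin names and no replicate numbers, where pairing by label is meant. The labels pair no libraries. The fits used for calls did pair libraries, through the library term. Those pairs come from the split in intron share and not from a label. The cause of the lost calls was not tested. Levels by the longest transcript were not run, since the deposited annotation gives no transcripts.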
